A study of Mus musculus with 21 samples.

Results

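The regions described here are places in the mouse genome, away from gene starts, where the transcription factor GATA4 was found in both the endothelial and the cardiomyocyte lineage of the embryonic heart. The peaks of 6 GATA4 libraries, joined wherever 1 bp or more was shared, made 49798 regions. A region was a member when at least 2 of 3 Tie2-Cre libraries and at least 2 of 3 Tnnt2-Cre libraries had a peak in it and its midpoint lay more than 1 kb from every annotated transcription start site (TSS). In all, 4844 regions were members. They were selected on the GATA4 peaks themselves, so every GATA4 value below is a description without a test, whereas ATAC and RNA played no part in the choice. For comparison, 5806 distal regions were Tie2-Cre-selective (a peak in at least 2 Tie2-Cre and in no Tnnt2-Cre library), 8431 distal regions were Tnnt2-Cre-selective by the mirror rule, and 1691 shared regions lay within 1 kb of a TSS.

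GATA4 is a zinc-finger protein that recognises the core letters GATA in DNA and works at promoters and at distal enhancers together with T-box, NK2, MEF2 and FOG family partners. In the heart it is needed in cardiomyocytes for growth and contractile gene expression, and in the endocardium, the endothelium that lines the heart, for valve cushion formation. Distal sites of such factors often lie in enhancers, which can act over long distances, and occupancy alone does not tell which gene a site serves.

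All samples were ventricles or cells of mice at E12.5, an embryonic stage at which the ventricles have formed. In bioChIP, a Cre driver switches on biotinylation of GATA4 in 1 lineage and streptavidin beads then recover the bound chromatin. The drivers were Tie2-Cre (endothelial and endocardial cells, and also blood cells) and Tnnt2-Cre (cardiomyocytes), with 3 libraries of 15 to 20 pooled hearts each. Open chromatin was mapped by ATAC, in which a transposase cuts accessible DNA, in 2 libraries of 40000 sorted Rosa26fsTrap;Tie2Cre cells (EC) and in 6 libraries of 20000 sorted endothelial cells from Gata4 ko or Gata4 het embryos, 3 each. All 6 carried Cdh5(Pac)-CreERT2 and the Rosa26mTmG reporter, and their dams had received 1 mg of tamoxifen at embryonic day 9.5. The Gata4 alleles are not given in the sources used here, and the ATAC lists hold no measure of Gata4 RNA by which the genotype labels could be checked. RNA came from EC sorted in the same way, 60000 cells in each of 2 libraries, and from 3 cardiomyocyte (CM) libraries. The column headers of the 3 CM libraries share a tag that the EC headers lack, and what it marks is not stated. In the RNA, lineage therefore cannot be told apart from a difference in preparation or sequencing between the EC and CM libraries. The 2 ATAC samples of cardiomyocytes were not analysed here. The labels do not say whether replicates were separate litters, so p-values measure the spread between these libraries, which may be technical.

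The peak lists differed in length, and their read depths are not known from the lists. The GATA4 lists held 17682 and 25936 peaks in Tie2-Cre replicates 1 and 3 and 22814 and 30447 in Tnnt2-Cre replicates 1 and 3, but 2734 and 3603 in replicate 2 of each driver. The ATAC lists held 114599 and 130708 peaks in EC, 55733 to 87496 in Gata4 ko and 67201 to 90326 in Gata4 het cells. RNA libraries had 27660790 and 21682362 counted reads in EC and 42948614 to 48393473 in CM. In 2 marker lists the RNA fitted the cell labels: of 20 endothelial genes tested 20 were higher in EC, and of 26 sarcomere genes 26 were lower in EC (edgeR quasi-likelihood test, adjusted p under 0.05). The 26 sarcomere genes summed to 1230 and 1220 CPM (reads scaled to library size) in EC and to 118000, 118000 and 127000 CPM in CM, and the 20 endothelial genes to 7960 and 7810 CPM in EC and to 1300, 1300 and 1140 CPM in CM. The 14 epicardial and mural genes summed to 564 and 558 CPM in EC and to 507, 484 and 467 CPM in CM. The 14 blood and macrophage genes tested summed to 61.7 and 53.5 CPM in EC and to 3260, 2530 and 1410 CPM in CM. The purity of the samples was not tested.

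A genome sequence was not used here, but RefSeq start windows (GRCm38.p6, 250 bases before to 50 after a start) covered the summit of 59 members, the middle of the summits in the lists that held a peak. These members are distal by the outermost start of each gene in the count table, which does not count every start that RefSeq lists. The stretches below reach up to 75 bases either side of the summit, on the strand of the RefSeq start and 5′ to 3′, and capitals mark GATAA or its reverse complement. They were chosen after their values were seen, to show members with a match, with a pair of matches and without a match.
Ablim1: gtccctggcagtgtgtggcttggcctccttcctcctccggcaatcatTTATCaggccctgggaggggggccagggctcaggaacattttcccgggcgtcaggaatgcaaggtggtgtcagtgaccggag
2010204K13Rik: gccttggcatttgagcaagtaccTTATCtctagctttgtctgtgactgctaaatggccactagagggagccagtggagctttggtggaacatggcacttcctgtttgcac
Celf2: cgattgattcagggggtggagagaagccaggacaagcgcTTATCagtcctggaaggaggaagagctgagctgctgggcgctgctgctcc
Arid1a: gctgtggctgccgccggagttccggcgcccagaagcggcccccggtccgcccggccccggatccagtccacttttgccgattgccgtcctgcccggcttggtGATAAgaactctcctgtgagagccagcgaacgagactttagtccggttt
Gm16201: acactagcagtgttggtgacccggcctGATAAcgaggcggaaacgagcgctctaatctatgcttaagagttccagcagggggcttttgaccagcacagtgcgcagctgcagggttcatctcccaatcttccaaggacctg
Hdac7: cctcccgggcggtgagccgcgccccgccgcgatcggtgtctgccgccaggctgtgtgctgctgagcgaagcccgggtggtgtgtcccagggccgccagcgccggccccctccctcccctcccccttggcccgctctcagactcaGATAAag
Schip1: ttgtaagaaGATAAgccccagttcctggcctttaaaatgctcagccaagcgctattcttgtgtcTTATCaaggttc
Tnpo1: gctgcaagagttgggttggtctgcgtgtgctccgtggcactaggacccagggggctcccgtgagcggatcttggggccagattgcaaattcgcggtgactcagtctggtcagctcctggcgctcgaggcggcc
Runx1: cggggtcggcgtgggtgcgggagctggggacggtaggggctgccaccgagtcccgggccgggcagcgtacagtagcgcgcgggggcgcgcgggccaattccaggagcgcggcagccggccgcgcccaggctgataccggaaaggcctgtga

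The stretch named for Ablim1, an actin-binding LIM protein gene, is chr19:57197582-57197710 (minus strand) and holds 1 match. Its member had folds of 6.6 and 6.17 in Tie2-Cre replicates 1 and 3 and 7.36 and 7.8 in Tnnt2-Cre replicates 1 and 3. The stretches at 2010204K13Rik (chrX:7421188-7421297, minus) and Celf2 (chr2:7081253-7081341, minus), an RNA-binding protein gene, hold 1 match each. Arid1a, a SWI/SNF remodelling subunit gene, has 1 match in chr4:133756805-133756955 (minus), in a member found in all 6 lists with folds of 7.3, 4.84 and 9.76 with Tie2-Cre and 9.51, 7.04 and 10.4 with Tnnt2-Cre. Gm16201 (chr7:139949908-139950047, plus) and Hdac7 (chr15:97831564-97831714, minus), a class IIa histone deacetylase gene, hold 1 match each, and Schip1 (chr3:68467933-68468008, plus) holds 2. Tnpo1 (chr13:98890993-98891125, minus), a nuclear import receptor gene, and Runx1 (chr16:92697420-92697570, minus), a factor of blood cell emergence, hold 0. The Runx1 member lay 128515 bp from the outermost Runx1 start and had folds of 5.51 and 4.9 in Tie2-Cre and 5.71 and 7.49 in Tnnt2-Cre replicates 1 and 3. All 9 members had an ATAC peak in all 8 lists. Over all 59 stretches cut in this way, 30 held at least 1 match.

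GATAA on either strand occurred in 38 of the 59 whole windows of 300 bases (64.4%). The share was 79.2% of 48 windows at Tie2-Cre-selective distal summits, 52.6% of 57 at Tnnt2-Cre-selective distal summits, 42.7% of 578 at shared promoter summits and 25.4% of all 32851 windows. The longer form AGATAA, which contains GATAA, was in 30.5% of the members' windows, 52.1% of the Tie2-Cre-selective and 29.8% of the Tnnt2-Cre-selective distal windows and 11.2% of all windows. TGANTCA, the form bound by AP-1 (Fos and Jun family dimers), was in 15.3% of the members' windows, 16.7% and 10.5% of the Tie2-Cre- and Tnnt2-Cre-selective ones and 7.81% of all windows. The E-box CAGCTG, a special case of CANNTG, was in 30.5% of the members' windows, 33.3% and 15.8% of the same selective classes and 16.3% of all. CANNTG itself was in 76.3% of the members' windows, 70.8% and 84.2% of the Tie2-Cre- and Tnnt2-Cre-selective ones and 72.3% of all. CATTCC, read by TEAD factors, was in 22% of the members' windows, 18.8% and 19.3% of the selective classes and 14.7% of all. CCGGAA, an ETS core, was in 22% of the members' windows, 8.33% and 3.51% of the Tie2-Cre- and Tnnt2-Cre-selective distal windows and 40.7% of the shared promoter windows, and in 14.9% of all windows. T-box letters GTGTGA were in 13.6% of the members' windows, 18.8% and 26.3% of the selective classes and 14.5% of all. The NK2 core AAGTG was in 44.1% of the members' windows, 52.1% and 42.1% of the selective classes and 46.4% of all. These windows are the 1.22% of members that sit on a start listed by RefSeq, so their letters do not stand for the rest.

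Most members rested on the 4 long GATA4 lists. Replicates 1 and 3 of both drivers all had a peak in 4795 members (99%), while replicate 2 had one in 1269 members with Tie2-Cre and in 1583 with Tnnt2-Cre. A peak in all 6 lists was found in 569 members, in exactly 5 lists in 1664 and in exactly 4 lists in 2611. By the rule, peaks of both drivers merge in every member, which limits how far apart their summits can lie. Across drivers, the median summit distance over members was 44, 40, 41 and 36 bp in the 4 pairs of replicates 1 and 3. Within drivers it was 39 bp between Tie2-Cre replicates 1 and 3 and 37 bp between Tnnt2-Cre replicates 1 and 3. Pairs with a replicate 2 list had medians of 56 to 63 bp across drivers and 51 to 53 bp within them. Members were wider than selective regions, with a median width of 507 bp against 359 bp for Tie2-Cre-selective and 360 bp for Tnnt2-Cre-selective distal regions, and a member merges at least 4 peaks.

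The members lay in the upper part of each list without forming its top. Ranked by the authors' peak p, the median member stood at the 30.9th, 41st and 21.1st percentile of the Tie2-Cre lists 1 to 3 and at the 26.4th, 38.2nd and 19.5th percentile of the Tnnt2-Cre lists 1 to 3, where 0 is the strongest peak. The median fold over background at members was 5.91, 6.03 and 6.35 with Tie2-Cre and 5.97, 5.95 and 6.72 with Tnnt2-Cre. Across all peaks of these lists it was 5.35, 5.88 and 5.23 with Tie2-Cre and 5.11, 5.76 and 5.18 with Tnnt2-Cre. The ATAC lists did not enter the choice, and there the median member stood at the 19.6th and 17.8th percentile in EC, at the 28.4th to 36.6th in Gata4 ko and at the 27.3rd to 32.8th in Gata4 het cells.

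The 10 strongest members, by mean rank of peak p among those in all 6 lists, also ranked high in ATAC lists, but their folds varied. The first lay between genes on chromosome 9 (35305078 to 35305683, mm10), with a peak fold of 27.1, 24.5 and 27.4 in Tie2-Cre replicates 1 to 3 and 26.9, 23.6 and 27.8 in Tnnt2-Cre replicates 1 to 3. Others of the 10 lay in an intron of Chl1 (chromosome 6, 103648928 to 103649433), near Ly6c2 (chromosome 15, 75086097 to 75087155) and 2251 bp from the start of Aida, inside an intron (chromosome 1, 183299006 to 183299617). One of the 10, between genes on chromosome 2 (98666205 to 98667354), had low folds. They were 5.69, 5.86 and 5.96 with Tie2-Cre and 5.33, 5.79 and 5.89 with Tnnt2-Cre, each below the median at members in its list. Of the 10, 8 were also in the top 1% of all 8 ATAC lists and the other 2 in the top 1% of at least 1. A run of 14 members lay in the first 3.1 Mb of chromosome 9, between 2999901 and 3036461, with Mir101c as the nearest gene start. A further 6 members lay on the mitochondrial genome, where no ATAC list had a peak, and 3 on the Y chromosome. Whether such places are GATA4 sites was not tested. Without the members on M and Y and the 19 in the top 1% of every GATA4 list that held them, 4816 members remained, 92.1% of them were open in both EC lists, and 753 and 709 nearby genes were higher and lower in EC, against 755 and 710 for all members.

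Among members in all 6 lists, outside the top 1% of every ATAC list and within 50 kb of a gene start, a selection made after values were seen, the strongest lay 1173 bp from Vstm2l (chromosome 2, 157913172 to 157913788). Its peak fold was 14, 9.23 and 17.6 with Tie2-Cre and 14.6, 12.6 and 18.2 with Tnnt2-Cre. Another lay between genes 34835 bp from Tle3, a Groucho family co-repressor gene (chromosome 9, 61337187 to 61337876), with folds of 9.56, 7.7 and 9.72 with Tie2-Cre and 16.3, 11.6 and 18.6 with Tnnt2-Cre. The eighth of this ranking lay in an intron of Tnni1, which encodes slow skeletal troponin I, the main troponin I of the embryonic heart (chromosome 1, 135800085 to 135800912, 1077 bp from its start). Its folds were 11.4, 8.78 and 11.7 with Tie2-Cre and 8.97, 6.9 and 11.8 with Tnnt2-Cre. All 3 had an ATAC peak in all 8 lists.

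Members lay closer to genes than selective distal regions did. The median distance from midpoint to TSS was 37582 bp (quartiles 14137 and 94857) for members, 47897 bp for Tie2-Cre-selective and 42940 bp for Tnnt2-Cre-selective distal regions, and 23.4%, 28.4% and 26.6% of the 3 classes lay more than 100 kb away. Introns held 44.9% of members, exons 2.79% and the space between genes 52.2%. Introns held 43.7% of the Tie2-Cre-selective class and 52% of the Tnnt2-Cre-selective class. The differences of position were not tested, since regions are not replicates. At the edge of the rule, the members nearest to a TSS were 1007 bp from Rab11a, 1008 bp from Nog and 1013 bp from Pqlc1, and the shared regions just inside the promoter class were 999 bp from Sbf2, 994 bp from Cdc14a and 992 bp from Gata6. By library number, 2611 members met the rule with 2 lists of each driver, while 1284 distal regions missed it with at least 2 Tie2-Cre lists and 1 Tnnt2-Cre list and 2186 with 1 and at least 2.

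**Figure D1:**
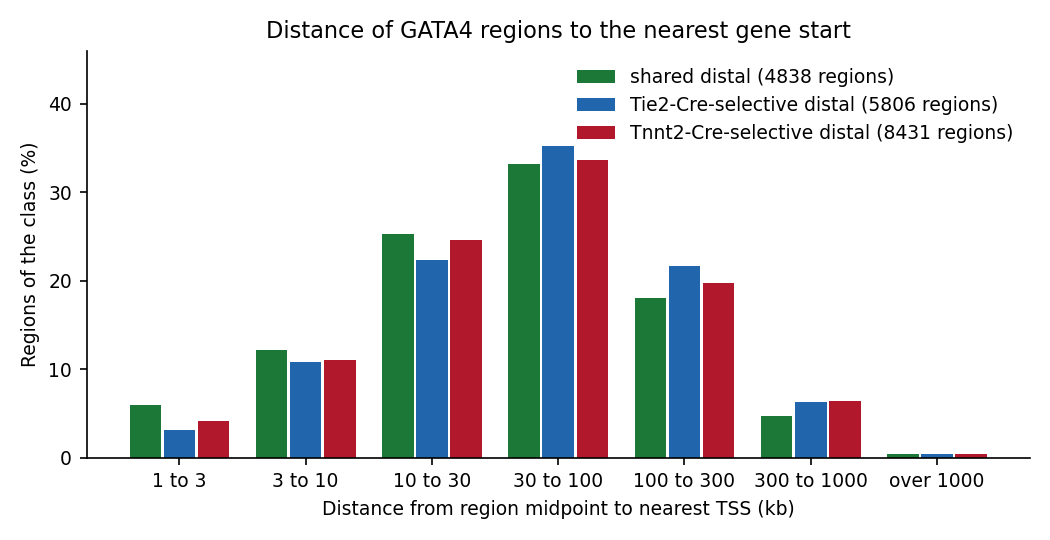
Share of each class of distal GATA4 region (y axis, percent) by distance from its midpoint to the nearest TSS (x axis, kb, unequal bins) for shared (green), Tie2-Cre-selective (blue) and Tnnt2-Cre-selective (red) regions, regions on M left out. The most filled bin of the shared class, 30 to 100 kb, held 33.2% of members, and 1 to 3 kb held 5.97%.

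The members were then compared with open chromatin, which asked whether the shared sites are accessible in endothelial cells. Nearly all were. Of 4838 members outside M, 4456 (92.1%, exact 95% interval 91.3 to 92.8, counting error only) had a peak in both EC ATAC lists, 143 in 1 and 239 in neither. Across the 8 ATAC libraries the share with a peak was 92.8% and 94.4% in EC, 81.9%, 79.5% and 66.3% in Gata4 ko and 83.9%, 79.8% and 71.4% in Gata4 het cells. The EC lists were thus above all 6 others, which were also shorter lists, and the ko and het libraries overlapped. With the 8 lists cut to the length of the shortest, 55733 peaks, 76.3% of members still had a peak in both EC lists.

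Against Tnnt2-Cre-selective distal regions the difference was large in every library. Members needed Tie2-Cre peaks and Tnnt2-Cre-selective regions had none, while all 8 ATAC lists came from endothelial cells. The class definitions thus favoured this direction, and the test below cannot set that apart. Members had an ATAC peak in 81.2 ± 9.55% of cases and Tnnt2-Cre-selective distal regions in 24.7 ± 11.8% (mean ± SD over 8 libraries). The difference was 56.5 points, between 49 and 60 in single libraries, and higher in 8 of 8 (exact two-sided sign-flip permutation test, p = 0.00781, the smallest that 8 libraries can give, adjusted over 3 comparisons 0.00781). Against Tie2-Cre-selective distal regions, at 78.8 ± 9.47%, the difference was 2.48 points (0.843 to 4.12, higher in 8 of 8 libraries, exact adjusted p = 0.00781). It changed sign to -1.72 points when only regions 300 to 800 bp wide were compared (exact adjusted p = 0.0547), and members were the wider class. With 3 of 3 libraries required it was -2.19 points (exact adjusted p = 0.0234), past the threshold in the other direction. All 8 libraries score the same regions, so these p-values measure consistency between peak lists and not the uncertainty of a class difference. Against shared promoter regions, at 98.4 ± 1.05%, the difference was -17.1 points, and members were lower in 8 of 8 libraries (exact adjusted p = 0.00781).

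**Figure D2:**
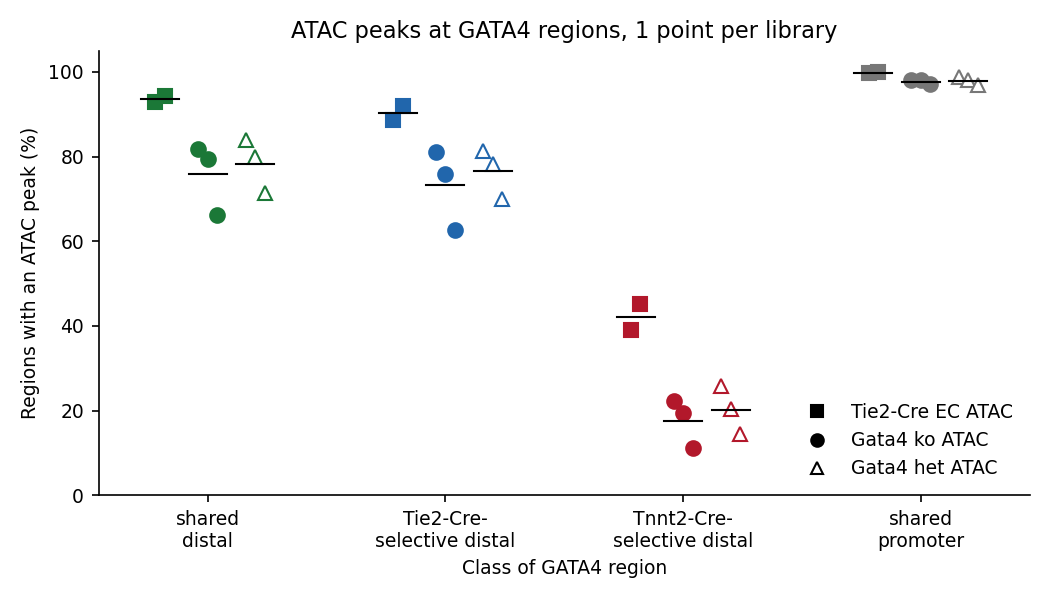
Percent of regions with an ATAC peak (y axis) for each class of GATA4 region (x axis), with 1 point per ATAC library of Tie2-Cre EC (squares), Gata4 ko (filled circles) and Gata4 het cells (open triangles) and a bar at the mean of each group. Members lie between 66.3% and 94.4%, close to Tie2-Cre-selective distal regions (62.7% to 91.9%) and far above Tnnt2-Cre-selective ones (11.2% to 45.3%).

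A minority of members had GATA4 peaks in both lineages without endothelial ATAC peaks. None of the 8 lists had a peak in 191 members (3.95%). The same held for 4.25% of the Tie2-Cre-selective class and 49% of the Tnnt2-Cre-selective class. The strongest of the 191 lay between genes, 3352 bp from the start of Mdfic (chromosome 6, 15716992 to 15717627), with GATA4 folds of 8.59, 6.86 and 9.35 with Tie2-Cre and 9.22, 7.86 and 9.24 with Tnnt2-Cre. Another lay in an intron of Jdp2, which encodes a bZIP repressor of AP-1 activity (chromosome 12, 85617962 to 85618576), with folds of 8.36, 7.58 and 9.65 with Tie2-Cre and 7.82, 6.77 and 8.78 with Tnnt2-Cre. A different 178 members (3.68%) were open in both EC lists but in none of the 6 ko and het lists. A missing peak is no proof of closed chromatin, since calling a peak also depends on read depth and enrichment.

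Loss of Gata4 was the next contrast. The share of members with an ATAC peak was 75.9 ± 8.41% in Gata4 ko and 78.4 ± 6.35% in Gata4 het cells (SD, n = 3 each), a difference of -2.46 points that was within the spread of the libraries (exact two-sided permutation test, p = 0.6, where 3 against 3 cannot go below 0.1). It turned positive without ko replicate 4, at 2.34, or without het replicate 2, at 0.303. Between same-numbered libraries the difference ran from -5.13 to -0.289 points, and with ATAC lists of equal length it was -0.758. The same share over the 4456 members open in EC was 81.5 ± 8.59% in ko and 84 ± 6.44% in het cells, and over 62197 distal EC-open regions without any GATA4 peak it was 45.2 ± 10.8% in ko and 48.8 ± 8.78% in het cells. The gap between these region sets was 36.4 ± 2.21 points in ko and 35.2 ± 2.69 points in het cells, and the gaps differed by 1.14 points (exact p = 0.5). That difference changed sign with equal ATAC list lengths (-0.413), with peaks of −log10 q of at least 5 (-0.269), without ko replicate 4 (-0.125) and without het replicate 3 (-0.0115).

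Single members seldom separated the genotypes. All 6 ko and het lists had a peak in 2836 members and none of them in 429. A peak in 0 ko and 3 het lists was found in 12 members (0.248%), against 0.203% of all 49792 GATA4 regions outside M, and in 3 ko and 0 het lists in 5 members (0.103%, against 0.0844%). Both shares were near the background, and regions were picked here by their ATAC peaks, so no test was made. The strongest of the 12 lay in an intron of Prkdc (chromosome 16, 15760192 to 15761271), and others lay in introns of Gadl1 (chromosome 9, 116041649 to 116042111) and of Camk2d, a cardiac calcium/calmodulin kinase gene (chromosome 3, 126630185 to 126630495). Of the 5 in the other direction, the closest to a well-known endothelial gene was the member 35554 bp from Flt1, a VEGF receptor gene (chromosome 5, 147761384 to 147761701), open in both EC lists, in 3 ko lists and in 0 het lists. Another of the 5 lay in an intron of Kif26a (chromosome 12, 112163927 to 112164383).

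Although all members had peaks in both lineages, their strength differed between lineages in a repeatable way. Members with a peak in replicates 1 and 3 of both drivers and outside M (4789) were ranked by peak p among themselves in each of the 4 lists, and the lean of a member was its mean Tnnt2-Cre rank percentile minus its mean Tie2-Cre rank percentile. A positive lean thus means a higher place with Tie2-Cre. Ranks of the 2 Tie2-Cre lists had a Spearman correlation of 0.727 over members and those of the 2 Tnnt2-Cre lists of 0.831, whereas pairs across drivers had 0.294 to 0.316. The lean computed from replicate 1 alone and from replicate 3 alone correlated at 0.647. These values are given as descriptions, since the points share libraries and depth, and lean was defined after the data had been seen.

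**Figure D3:**
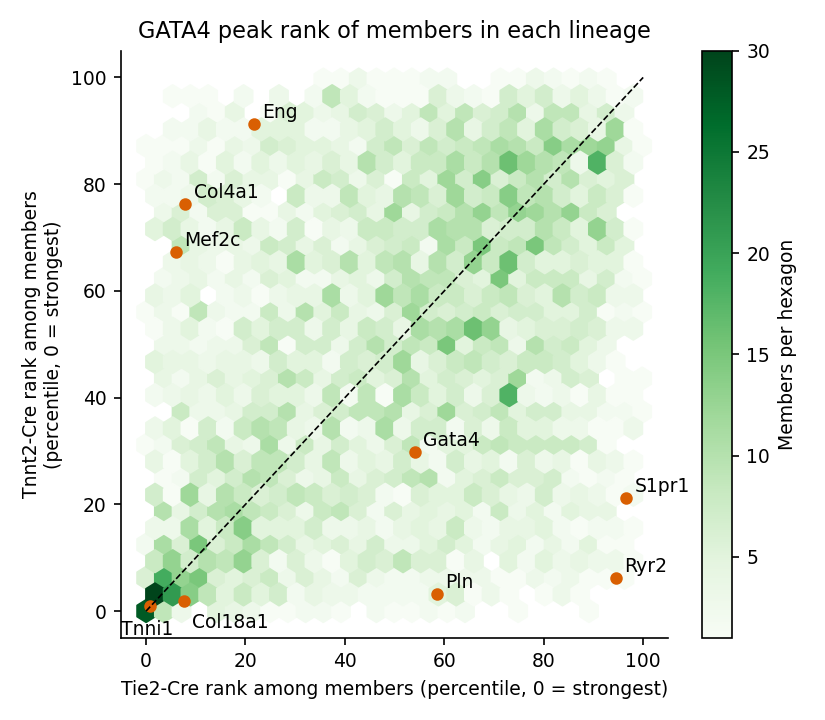
Mean rank percentile of each member with Tie2-Cre (x axis) and with Tnnt2-Cre (y axis), 0 being the strongest, over 4789 members binned in hexagons whose colour gives the number of members. Points mark the members nearest to 9 named genes, and the dashed line marks equal ranks. Members near Eng, Col4a1 and Mef2c lie above the line (stronger with Tie2-Cre) and those near Ryr2, Pln and S1pr1 below it.

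Lean went with the ATAC share and, when members were ranked by peak p, with the RNA of the nearest genes. Members were divided into quintiles by lean. In the most Tie2-Cre-leaning quintile (958 members) an ATAC peak was present in 95.2% and 96.1% of members in the EC lists, in 89%, 87.2% and 78.2% in the ko lists and in 89.7%, 87.1% and 81.8% in the het lists. The most Tnnt2-Cre-leaning quintile (958 members) had 92.2% and 94.7% in EC, 74.5%, 68.2% and 48.4% in ko and 79.1%, 69.5% and 56.6% in het lists. The Tie2-Cre-leaning quintile was higher in 8 of 8 libraries, by 1.46 to 29.7 points, with the smallest differences in the long EC lists. With all lists cut to equal length the EC lists differed as well, at 84.3% and 84.9% in the Tie2-Cre-leaning and 71.6% and 73.1% in the Tnnt2-Cre-leaning quintile. Median widths were 513 and 545 bp in these quintiles.

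The nearest genes followed the same gradient when ranks came from peak p. Among tested genes whose start was the nearest within 50 kb, 166 of 350 (47.4%) were higher and 118 (33.7%) lower in EC in the Tie2-Cre-leaning quintile. In the Tnnt2-Cre-leaning quintile 131 of 403 (32.5%) were higher and 198 (49.1%) lower. The middle quintile had 43% higher and 37.4% lower. In these bulk samples, fewer expressing cells and less RNA per cell cannot be told apart. The median log2 fold change of EC over CM was 0.20 in the first and -0.32 in the last of these quintiles. The gap in EC-higher genes was 14.9 points, 13.1 from replicate 3 alone and 12.2 from replicate 1 alone. It shrank to 3.13 points when members were ranked by the deposited fold in place of p (41.1% against 38%), so this gradient depends on the measure of peak strength, while the gap in ATAC share stayed at 13.2 points by fold and 15.1 by p.

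**Figure D4:**
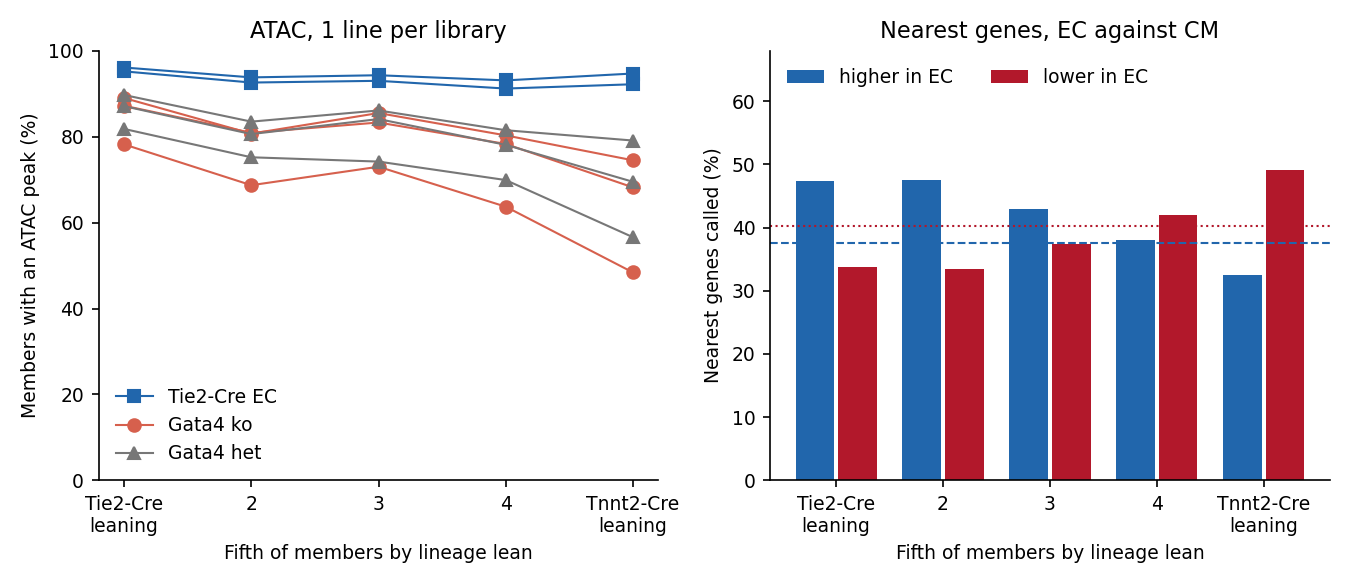
Members in 5 equal groups by lean, from Tie2-Cre-leaning (left) to Tnnt2-Cre-leaning (right). The left panel gives the percent with an ATAC peak in each of 8 libraries and the right panel the percent of nearest genes higher (blue) or lower (red) in EC, with dashed and dotted lines at the shares over all genes tested (37.5% and 40.2%). The ko and het points lie between 78.2% and 89.7% at the left end and between 48.4% and 79.1% at the right end, and the blue bars are the taller at the left (47.4% and 33.7%) and the red at the right (32.5% and 49.1%).

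Taken as 1 set, the genes near members were not strongly tilted to either lineage. A gene start lay within 50 kb of 2783 members (57.5%), which gave 2415 genes, of which 1815 were tested. Of these 755 (41.6%) were higher and 710 (39.1%) lower in EC, compared with 37.5% and 40.2% of all 14851 genes tested (edgeR quasi-likelihood test, adjusted p under 0.05). Genes near Tie2-Cre-selective distal regions had 52.1% higher and 29.5% lower, and genes near Tnnt2-Cre-selective distal regions 32.3% and 48.2%. Where a gene had a member and also a Tie2-Cre-selective but no Tnnt2-Cre-selective distal region (253 tested), 59.3% were higher and 24.1% lower in EC. Where it had a member and a Tnnt2-Cre-selective but no Tie2-Cre-selective one (452 tested), 28.3% were higher and 52.2% lower. The 949 tested genes with a member and no selective distal region had 42.7% higher and 37.2% lower.

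Genes with several members gave both patterns. A single member was assigned to 2108 genes, 2 to 265 and 3 or more to 42. Apart from Mir101c, Tbc1d7 had the most, with 5 members (chromosome 13, 43133365 to 43196588), and its RNA did not pass the test (7.44 ± 0.494 CPM in EC and 7.36 ± 0.725 in CM, adjusted p = 0.941, edgeR). Of these, 2 lay in introns of Phactr1 and 1 in an exon of Gfod1. Zfpm1, which encodes the GATA cofactor FOG1, had 4 members, all in its introns, 2426, 14572, 27376 and 31385 bp from its start. It had 130 and 114 CPM in EC, against 22.1, 23.7 and 23.7 in CM (log2 fold change 2.40, SE 0.08, adjusted p = 9.77e-10, edgeR). The member 2426 bp from its start had EC ATAC folds of 19.9 and 18.5 and no peak in any ko or het list.

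Ptprb, which encodes the endothelial phosphatase VE-PTP, had 4 members, 1 in its own intron and 3 in introns of the neighbouring Ptprr, and each was open in both EC lists. It stood at 172 and 186 CPM in EC, against 20.4, 22.6 and 23.6 in CM (log2 fold change 3.01, SE 0.08, adjusted p = 2.38e-10). Trim8, an E3 ubiquitin ligase gene, had 4 members, 3 of them in introns of Sufu, and was also higher in EC (124 ± 8.98 CPM against 28.1 ± 2.78 in CM, adjusted p = 5.77e-09, edgeR). Cbfa2t3, a co-repressor gene of the ETO family, had 3 members and 77 ± 4.4 CPM in EC, against 2.99 ± 0.636 in CM (log2 fold change 4.69, adjusted p = 3.64e-10). Prrc2b, with 3 members, was higher in EC by 1.17 on the log2 scale (adjusted p = 2.59e-06, edgeR). The other genes of the top 10 were Mir101c, named above, and Gm19689, 1700071K01Rik and Pisd-ps1, whose members lay partly in introns of Asic2 and Sfi1, and Pisd-ps1 did not pass the test (adjusted p = 0.976, edgeR). Gm19689 was lower in EC, at 0 CPM in both EC libraries and 0.598 ± 0.141 CPM in CM (adjusted p = 0.000396, edgeR).

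The genes near members are given below by role. Up to 3 called genes of each list were taken, smallest adjusted p first, beside the GATA genes and partners with a member. For each gene named with values per library, the edgeR adjusted p therefore was small, between 1.67e-11 and 1.38e-05. The contrast called 37.5% of all genes tested higher and 40.2% lower in EC. Of 11 GATA factor and partner genes 4 had a member within 50 kb, and 4 of 4 were higher in EC, as were 9 of all 11; over all genes tested 12.2% had a member. At Gata4 the member lay 10950 bp from the start (chromosome 14, 63255933 to 63256488), with folds of 4.71 and 6.17 in Tie2-Cre replicates 1 and 3, no peak in replicate 2, and 5.98, 5.04 and 5.55 with Tnnt2-Cre. It was open in 8 of 8 ATAC lists. Gata4 had 253 and 244 CPM in EC, against 63.5, 76.1 and 87.3 in CM. Gata2, a factor of blood and endothelial cells, had a member 8855 bp from its start (chromosome 6, 88189570 to 88190049) and 69.7 and 66.5 CPM in EC, against 2.52, 2.61 and 2.51 in CM. That member leaned to Tnnt2-Cre (lean -40.6), although the gene was higher in EC. Lmo2, a bridging partner of GATA factors, had a member 24437 bp away and 35.4 and 38.2 CPM in EC, against 8.87, 9.95 and 9.87 in CM.

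Cardiac transcription factor genes with a member were 7 of 21, of which 2 were higher and 5 lower in EC, with 8 higher and 13 lower over all 21. Ankrd1, a muscle ankyrin repeat cofactor, had a member 9789 bp from its start (chromosome 19, 36129204 to 36130063) with folds of 6.72 and 7.01 in Tie2-Cre replicates 1 and 3 and 10.8, 8.74 and 13.2 with Tnnt2-Cre. Its RNA stood at 23.6 and 23.7 CPM in EC, against 1460, 1500 and 1580 in CM. Myocd, the co-activator of SRF, had an intronic member 43043 bp from its start (chromosome 11, 65226739 to 65227154) and 1.88 and 3.94 CPM in EC, against 102, 104 and 128 in CM. Both members leaned to Tnnt2-Cre, at -34.6 and -36.8. Mef2c, a MADS-box factor of heart and endothelium, ran the other way, since it was lower in EC (108 and 102 CPM, against 250, 248 and 235 in CM) while its member (chromosome 13, 83481176 to 83481683) leaned to Tie2-Cre at 61.2, with folds of 10.4, 5.54 and 11.4 with Tie2-Cre and 4.58 and 7.83 in Tnnt2-Cre replicates 1 and 3.

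Endothelial transcription factor genes had a member in 5 of 23 cases and endothelial genes in 5 of 20, and all 10 were higher in EC, like 22 of the 23 and 20 of the 20 in the whole lists. The first list had 6 members, 12 Tie2-Cre-selective and 9 Tnnt2-Cre-selective distal regions, and the second had 5, 20 and 4. Sox7, a SoxF factor, had a member in an intron of Pinx1 (chromosome 14, 63908390 to 63909156) and 134 and 139 CPM in EC, against 10.3, 11.4 and 14.3 in CM. Erg, an ETS factor, had 115 and 113 CPM in EC, against 19.7, 20.4 and 20.2 in CM, and its member (chromosome 16, 95599741 to 95600270) had no ATAC peak in any list. Hey1, a Notch effector, had 31.7 and 28.9 CPM in EC, against 9.01, 8.1 and 9.31 in CM, with a member in all 6 GATA4 lists.

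Eng, the TGF-beta co-receptor endoglin, carried an intronic member 15366 bp from its start (chromosome 2, 32661666 to 32662256) that leaned to Tie2-Cre (69.4), with folds of 5.28, 4.71 and 7.72 with Tie2-Cre and 4.15 and 5.04 in Tnnt2-Cre replicates 1 and 3. Its RNA was 636 and 607 CPM in EC, against 31.2, 36.6 and 36.1 in CM. Flt1, named above, had 280 and 300 CPM in EC, against 43.3, 46.5 and 44.1 in CM. S1pr1, the sphingosine-1-phosphate receptor, was higher in EC (253 and 246 CPM, against 80, 80.2 and 77.9 in CM) although its member (chromosome 3, 115757849 to 115758806) leaned to Tnnt2-Cre at -75.4, with folds of 4.37 and 4.07 in Tie2-Cre replicates 1 and 3 and 7.05, 4.84 and 9.1 with Tnnt2-Cre. A member in an intron of Tek, the Tie2 receptor gene (chromosome 4, 94745480 to 94746850), leaned to Tie2-Cre at 79.4 by p while its folds did not (4.81, 3.53 and 4.66 with Tie2-Cre, and 4.5 and 5.81 in Tnnt2-Cre replicates 1 and 3). Tek itself was higher in EC (log2 fold change 2.17, adjusted p = 9.48e-09, edgeR). The Tie2-Cre driver carries the name of this gene, and whether the driver itself adds to the signal at this member was not tested.

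Endocardial genes had a member in 6 of 20 cases, all 6 higher in EC, like 17 of the 20. Hapln1, which links hyaluronan in cardiac jelly, had a member 1221 bp from its start (chromosome 13, 89539155 to 89539675; lean -3.49) and 1450 and 1490 CPM in EC, against 25.5, 28.2 and 24.1 in CM. Postn, the matrix protein periostin, had 941 and 890 CPM in EC, against 156, 165 and 177 in CM, with a member 2339 bp away (chromosome 3, 54358480 to 54359057). Tmem108, with an intronic member 2532 bp from its start, had 183 and 174 CPM in EC, against 24.5, 25.2 and 26.4 in CM.

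Contractile genes also had shared sites, beside more Tnnt2-Cre-selective ones. The sarcomere list had 9 members, 3 Tie2-Cre-selective and 21 Tnnt2-Cre-selective distal regions. The calcium-handling and ion channel list had 10, 5 and 32. Of 26 sarcomere genes 6 had a member and all 6 were lower in EC, as were all 26, and of 20 calcium-handling and ion channel genes 9 had a member and all 9 were lower in EC, as were all 20. Tnni1 had 3 members and stood at 62.2 and 72.3 CPM in EC, against 1160, 1030 and 1180 in CM, and the member 1077 bp from its start, described above, had a lean of 0.198, hence equal ranks in both lineages. Tnnt2, cardiac troponin T, had 79.7 and 82.9 CPM in EC, against 4640, 5450 and 6000 in CM. Its member (chromosome 1, 135861783 to 135862293) was open in 8 of 8 ATAC lists and leaned to Tie2-Cre (42.6), with folds of 5.24 and 6.98 in Tie2-Cre and 4.26 and 4.57 in Tnnt2-Cre replicates 1 and 3. Myoz2, a Z-disc protein gene, had 0.425 and 1.04 CPM in EC, against 143, 154 and 173 in CM.

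Ryr2, the calcium release channel of the sarcoplasmic reticulum, had the member that leaned most to Tnnt2-Cre among those near a tested gene (-88.2; chromosome 13, 12133424 to 12133834). Its folds were 4.61 and 4.35 in Tie2-Cre replicates 1 and 3 and 6.72, 3.93 and 6.69 with Tnnt2-Cre, and Ryr2 had 9.43 and 10.6 CPM in EC, against 946, 947 and 1070 in CM. Pln, the SERCA inhibitor phospholamban, had a member in an intron of Cep85l (chromosome 10, 53324652 to 53325304, lean -55.3) and 6.34 and 5.39 CPM in EC, against 2430, 2020 and 2400 in CM. The member in an intron of Cap2, which encodes an actin-regulating protein, (chromosome 13, 46523057 to 46523783, lean -86.7) had folds of 4.27 and 4.61 in Tie2-Cre replicates 1 and 3 and 7.86, 6.29 and 10.5 with Tnnt2-Cre, no ATAC peak in any list, and Cap2 RNA was lower in EC (log2 fold change -5.60, adjusted p = 1.67e-11, edgeR). Not every strong lean matched RNA, since Srgap1, near a member with a lean of -86.1, had a log2 fold change of 2.89 and Frmpd1, near the member that leaned most to Tie2-Cre (91.5), had a log2 fold change of -3.65. Cap2, Srgap1 and Frmpd1 were picked for their lean, by a ranking set after the data had been seen.

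**Figure D5:**
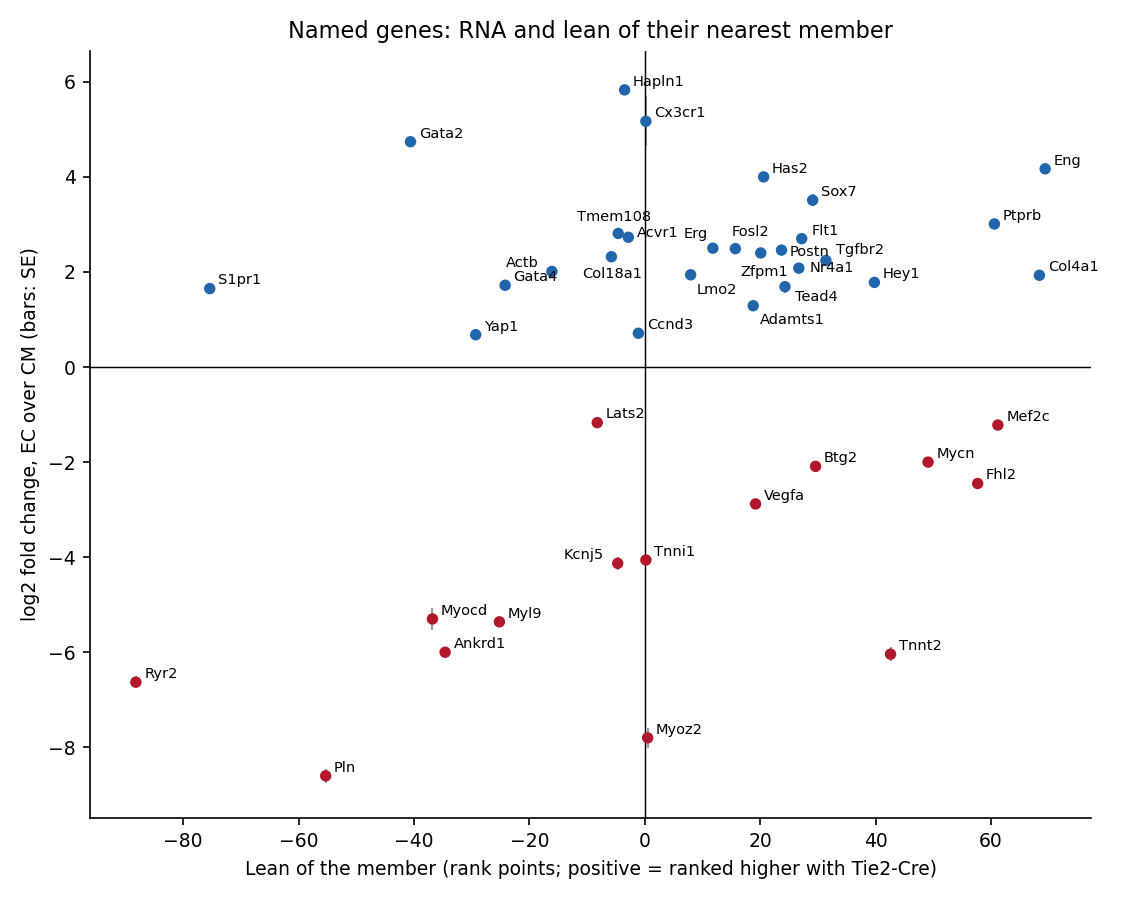
log2 fold change of EC over CM with its SE (y axis) against the lean of the nearest member (x axis, rank points, positive when ranked higher with Tie2-Cre) for the named list genes, blue when higher and red when lower in EC. Genes lie on both sides of both zero lines, with Eng (69.4) and Ryr2 (-88.2) at opposite corners and S1pr1, Mef2c and Tnnt2 at the other corners.

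BMP and TGF-beta genes had a member in 10 of 25 cases, of which 8 were higher and 0 lower in EC, with 18 higher and 3 lower over the whole list. Acvr1, a BMP type I receptor gene, had 129 and 134 CPM in EC, against 21.7, 20.1 and 17.8 in CM, and Tgfbr2, the TGF-beta type II receptor gene, 161 and 158 CPM in EC, against 34, 33.5 and 34.1 in CM; both members were intronic. Of 15 VEGF and angiopoietin genes 5 had a member, 4 higher and 1 lower in EC, with 11 higher and 3 lower over the whole list. The lower one was Vegfa, the ligand (24.4 and 22.9 CPM in EC, against 155, 172 and 194 in CM), whose member 48958 bp away (chromosome 17, 45983100 to 45983738) had no ATAC peak in any list. Of 16 Hippo and Tead genes tested 6 had a member, 4 higher and 2 lower in EC, with 10 higher and 3 lower over the list. Yap1, the co-activator of TEAD factors, had 217 and 227 CPM in EC, against 127, 140 and 148 in CM, and the kinase gene Lats2 had 45.4 and 55.1, against 111, 118 and 111. Tead4 was higher in EC (log2 fold change 1.69, adjusted p = 4.17e-07, edgeR). Of 16 Notch genes 1 had a member (6.25%), Hey1, and 12 of the 16 were higher and 3 lower in EC.

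Matrix and basement membrane genes had the greatest share of genes with a member among the 18 lists, 13 of 19 (68.4%, against 12.2% of all genes tested); 10 of the 13 were higher and 1 lower in EC, like 16 and 1 of the 19. Col18a1, the collagen XVIII gene, had 3 members (chromosome 10) and 2070 and 1880 CPM in EC, against 396, 424 and 367 in CM. The member 7020 bp from its start (77159009 to 77160011) had folds of 7.34 and 6.93 in Tie2-Cre replicates 1 and 3 and 10.9, 8.04 and 10.2 with Tnnt2-Cre. Col4a1, a collagen IV chain gene, had 2710 and 2470 CPM in EC, against 694, 708 and 641 in CM, and its intronic member (chromosome 8, 11267240 to 11267803) leaned to Tie2-Cre at 68.4. Has2, the hyaluronan synthase gene, had 2 members and 99.9 and 107 CPM in EC, against 7.04, 5.84 and 6.42 in CM. Its nearer member (chromosome 15, 56717431 to 56718010) was open in both EC lists, in 1 ko list and in 0 het lists. The list of natriuretic peptide and trabecular genes had a member in 2 of 14 cases (14.3%), Adamts1 and Has2. Both were higher in EC, with 6 higher and 7 lower over the whole list. Adamts1, a matrix protease gene, had 768 and 816 CPM in EC, against 340, 341 and 292 in CM. The matrix list had 19 members beside 17 Tie2-Cre-selective and 13 Tnnt2-Cre-selective distal regions. Gene length and spacing were not adjusted for.

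Immediate early genes had a member in 9 of 17 cases (52.9%), 7 higher and 1 lower in EC, with 10 higher and 4 lower over all 17. Fosl2, an AP-1 subunit gene, had 168 and 176 CPM in EC, against 29.5, 34 and 28.1 in CM, and Nr4a1, a nuclear receptor gene, 165 and 153, against 35.3, 39.4 and 38.1. Btg2, an antiproliferative gene, was lower in EC (136 and 137 CPM, against 556, 615 and 578 in CM). Of the actin and adhesion genes 6 of 24 had a member, 1 higher and 3 lower in EC, while 14 of the 24 were higher and 8 lower. Myl9, a smooth muscle myosin light chain gene, had 21.8 and 19.8 CPM in EC, against 852, 846 and 863 in CM, with an intronic member that had no ATAC peak in any list. Actb, cytoplasmic actin, had 3500 and 3520 CPM in EC, against 816, 886 and 907 in CM. Fhl2 encodes a LIM-only cofactor and had a log2 fold change of -2.45 (adjusted p = 3.95e-09, edgeR), while its member leaned to Tie2-Cre at 57.7.

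Cell cycle genes had a member in 2 of 19 cases (10.5%), and 10 of the 19 were higher and 9 lower in EC, with Ccnd3 higher (log2 fold change 0.71, adjusted p = 1.09e-05, edgeR) and Mycn lower in EC (18.7 and 16.5 CPM, against 68, 67.2 and 76.6 in CM). Epicardial and mural genes had a member in 0 of 14 cases. Blood and macrophage genes had a member in 2 of 14 tested (14.3%, against 12.2% of all genes tested), Runx1 and Cx3cr1, and Cx3cr1, a microglia and macrophage receptor gene, was at 2.13 and 1.27 CPM in EC and at 0.0416, 0.0471 and 0.0449 CPM in CM. Over the 14 tested blood genes, 8 were higher and 5 lower in EC, and their summed level was 61.7 and 53.5 CPM in EC and 3260, 2530 and 1410 CPM in CM. The embryonic globin gene Hbb-y made up most of the CM sums, with 12.3 and 11.8 CPM in EC and 3025, 2254 and 1213 CPM in CM. At 0 stood 0 and 1 of the 14 in the EC libraries. Tie2-Cre also marks blood cells, and their part in the Tie2-Cre GATA4 peaks was not tested. Kcnj5, a potassium channel gene, closed the calcium and channel list with 3.62 and 2.67 CPM in EC, against 55.8, 59.1 and 52.7 in CM and a member of even lean (-4.69).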

How the data were processed

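The deposited GATA4 and ATAC peak lists, 1 for each library, give the authors' fold over background (a ratio) and the authors' −log10 p and −log10 q of every peak. The sources used here do not say whether peaks were called against a control library. The deposited RNA table holds counts of reads for each gene, from featureCounts 1.6.3 with forward-stranded counting on mm10 genes, per the file headers. Bowtie 1.1.1, Bowtie2 2.2.9, STAR 2.7.3a, MACS2 2.2.4 and deepTools 3.3.1 are named in the submitters' processing notes, which give no roles.

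Counts were fitted by the quasi-likelihood method of edgeR 4.0.16 in R 4.3.3 after filterByExpr and TMM scaling, with p-values adjusted by Benjamini-Hochberg over 14851 genes (threshold 0.05) and DESeq2 1.42.0 as the alternative. CPM are counts scaled to effective library size, and SE was taken as the absolute log2 fold change over the square root of its F value. Regions were handled in Python 3.11.15 (pandas 2.3.3, numpy 2.4.6, scipy 1.17.1, figures with matplotlib 3.10.9); the code was tested on simulated lists and counts. TSS are the outermost exon ends of genes on 1 chromosome and strand. For nearest genes, hosts, exons and introns, 137 symbols whose copies lie apart were also left out. Coordinates are mm10, counted from 1. Sequences are RefSeq GRCm38.p6 windows, and 83.4% of 17157 matched genes had a start at the same base as in the count table.

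Tests took libraries as units: an exact sign-flip test over 8 ATAC libraries and an exact permutation test of 3 ko against 3 het libraries. Peak presence depends on depth and calling. Replicate numbers of ko and het libraries were not taken as pairs. Named members were the 10 strongest in all 6 lists, those at the 10 genes with most members, up to 3 called genes of each of 18 lists, GATA genes and partners, members that separated ko from het, and those at the rule's edge. Members and lists were chosen with earlier results of these data known. Where the motif letters were planned for a whole genome, they were read only in the RefSeq windows.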

Additional observations from a re-analysis of the deposited data

How the results depend on the processing

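The number of members, 4844, rested on the 4 long GATA4 lists. It was 569 when 3 of 3 libraries of each driver were required, 598 with GATA4 lists of equal length (the strongest 2734 peaks) and 2841 when a peak had to cover 0.5 of its region. With each GATA4 library left out it ranged from 1241 to 4828: 1260 and 1241 without Tie2-Cre replicate 1 or 3, 1583 and 1568 without Tnnt2-Cre replicate 1 or 3, and 4809 and 4828 without replicate 2. The share open in both EC lists, 92.1%, was 90.4% with −log10 q of at least 5, 76.3% with lists of equal length and 94.5% with 3 of 3 libraries, and with 1 EC list left out 92.8% to 94.4%. The difference from Tie2-Cre-selective distal regions became -1.72 points in regions 300 to 800 bp wide (exact adjusted p = 0.0547). It was -2.19 with 3 of 3 libraries (exact adjusted p = 0.0234), and the other alternatives gave 1.75 to 5.23. The differences from Tnnt2-Cre-selective and shared promoter regions kept their direction and stayed past the threshold in all 14 alternatives. The ko minus het difference ranged from -5.93 to 2.34 points with each library left out. Set against regions without GATA4 it was -0.413 with lists of equal length, -0.269 with −log10 q of at least 5 and -0.125 to 2.62 with each library left out. The cause of these changes was not tested.

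Genes near members higher and lower in EC numbered 755 and 710. The test against a 2-fold change, which asks for more, gave 411 and 366 (5244 in place of 11547 over all genes), and a distance of 20 kb, which takes fewer genes, gave 488 and 425. The replicate block gave 731 and 679 genes (10977 over all genes). The gap in EC-higher genes between lean quintiles, added after seeing the data like all lean results, was 3.13 points when ranked by fold. For ko and het, treating same-numbered libraries as pairs (replicate block) left the differences at -2.46 and 1.14 with exact p = 0.25 each, the smallest that 3 pairs allow. Same-numbered ko and het libraries correlated in their deviations from the group means at 0.0995, 0.0422 and 0.168, each library best with its own number, a hint from the data that did not reach 0.1 in every pair. No paired analysis was possible for the member count because it comes from no test. Also more than 1 kb from every RefSeq start were 4627 members, an alternative added after seeing the data. Read depth behind the peak lists is unknown, and a missing peak in a short list is not evidence of absence.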

Other observations

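Members seldom lay in tight groups. The median distance from a member to the next member was 97802 bp, and 444 of 4838 members (9.18%) had another member within 10 kb. A Tnnt2-Cre-selective distal region lay within 10 kb of 575 members (11.9%), a Tie2-Cre-selective one of 407 (8.41%) and a shared promoter region of 67 (1.39%); the classes differ in number, and no test was made. Of the 4 Zfpm1 members, 3 had higher folds with Tie2-Cre in replicates 1 and 3 alike, among them 5.11, 5.66 and 6.11 with Tie2-Cre against 3.41 and 3.3 in Tnnt2-Cre replicates 1 and 3 at the member 14572 bp from the start, and 6.78, 5.42 and 7.37 against 4.54 and 4.72 at the member 31385 bp from it. The 3 Cbfa2t3 members had folds of 5.48 to 14 with Tie2-Cre and 5.02 to 11.1 with Tnnt2-Cre.

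Genes with a member and a shared promoter region (163 tested) were higher in EC in 36.2% and lower in 42.9% of cases. The median level of the 223 tested genes with at least 2 members was 35.7 CPM in EC and 23.1 CPM in CM. Over all genes tested it was 18.1 CPM in EC and 17.9 CPM in CM. Gene by gene, the 223 were not strongly tilted to EC. Of them 96 (43%) were higher and 87 (39%) lower in EC (edgeR, adjusted p under 0.05), and their log2 ratios of EC to CM centred on 0.07. Among tested genes with 1 member, 41.4% were higher and 39.1% lower. Neighbouring members differed in openness. Of the 4 members assigned to Trim8, 3 were open in both EC lists and 1, in a Sufu intron (chromosome 19, 46469675 to 46469957), in none of the 8 lists.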
